A study of Mus musculus with 15 samples.

Results

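Lipid droplet storage and its breakdown were followed through 10 genes in liver macrophages: Plin2, G0s2, Pnpla2, Lipe, Mogat2, Dgat1, Dgat2, Soat1, Hilpda and Angptl4. The genes were chosen by function, with earlier results of these data known. Their probes were found on the arrays through the RefSeq accession that the scanner files give for each probe. All 10 were among the 13390 named genes that could be tested, out of 20145 named on the array, and they were read by 11 probes. Each of the 3 groups held 5 one-colour Agilent arrays. The first group, WT_SD, held CD11c-negative resident macrophages of normal liver from male wildtype mice on a standard diet, whose age was not given in the sources used here. The other groups came from male MC4R-KO mice, which lack the melanocortin 4 receptor, an appetite receptor of the brain whose loss causes overeating and obesity. These mice ate a Western diet for 20 weeks from 8 weeks of age, and their livers were labelled as non-alcoholic steatohepatitis (NASH). Their macrophages were split by sorting into CD11c-negative and CD11c-positive cells (MC4R_WD CD11c-negative and CD11c-positive). In every group the cells were released with collagenase and sorted for high F4/80, a macrophage surface protein, and 7 to 9 mice gave the pooled RNA of a sample. Genotype and diet changed together between wildtype and NASH mice, so their parts cannot be told apart. The labels do not say that the 5 arrays of a group came from separate pools of mice, so the p-values speak for the spread among these arrays alone, part or all of which may be technical.

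A lipid droplet is a core of triglyceride and cholesteryl ester wrapped in a single layer of phospholipid and a coat of proteins. Fatty acids enter it when acyltransferases build triglyceride, and they leave it by lipolysis, in which adipose triglyceride lipase, the product of Pnpla2, makes the first cut and hormone-sensitive lipase, the product of Lipe, acts next. Macrophages that take up much lipid store it in such droplets and are then called foam cells. The genes are described below by role: coat, synthesis, sterol ester, lipases, lipase inhibitors inside the cell, and the secreted inhibitor of lipoprotein lipase.

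RefSeq promoters (build GRCm38.p6) were found for 6 of the 10 genes in 8 windows, Lipe and Hilpda having 2 each. Those of Plin2 and Hilpda, which were higher in both NASH groups than in wildtype, and of G0s2, which was higher in one and lower in the other, are printed as the 250 bases before the start of transcription. Capitals mark matches, on either strand, to AGGTCA, the half-site of many nuclear receptors including the fatty acid receptors of the PPAR family, or to ACGTG, the core letters of hypoxia response elements. The Plin2 window is chr4:86670060-86670309 on the minus strand, that of Hilpda is chr6:29272376-29272625 on the plus strand, and that of G0s2 is chr1:193273189-193273438 on the minus strand.
Plin2: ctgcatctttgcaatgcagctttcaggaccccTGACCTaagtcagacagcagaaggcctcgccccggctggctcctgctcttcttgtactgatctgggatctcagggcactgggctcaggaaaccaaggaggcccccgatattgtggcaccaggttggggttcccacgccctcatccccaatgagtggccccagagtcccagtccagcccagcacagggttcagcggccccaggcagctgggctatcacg
Hilpda: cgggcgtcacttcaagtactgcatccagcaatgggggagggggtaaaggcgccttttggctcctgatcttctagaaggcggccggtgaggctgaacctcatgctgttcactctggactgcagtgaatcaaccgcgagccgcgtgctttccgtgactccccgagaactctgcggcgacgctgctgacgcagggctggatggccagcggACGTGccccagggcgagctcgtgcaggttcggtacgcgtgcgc
G0s2: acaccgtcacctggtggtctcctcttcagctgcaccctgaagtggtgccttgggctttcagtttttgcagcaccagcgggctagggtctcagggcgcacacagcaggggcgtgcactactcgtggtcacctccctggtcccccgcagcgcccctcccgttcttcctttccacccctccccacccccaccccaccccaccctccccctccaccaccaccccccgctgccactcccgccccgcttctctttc
The Plin2 window held 1 match to AGGTCA, beginning 218 bases before the start and lying on the reverse strand. The Hilpda window held 1 match to ACGTG, beginning 43 bases before the start, and the window of its other listed start held none. Neither motif was in the window of G0s2, Pnpla2 or Soat1. Of the 2 Lipe windows, one held a palindrome in which ACGTG reads on both strands in 2 overlapping matches, and the other held no match. In all, AGGTCA was in 1 of the 8 windows and in 14.0% of the 32851 promoters of the table, and ACGTG was in 2 of the 8 windows and in 16.6% of them. Of the other motifs searched on both strands, CCAAT was in the windows of Plin2 and Soat1 and in 33.85% of all promoters, and TATAAA was in none of the 8 windows and in 12.4% of all. These are matches of letters in one window, not shown to be bound by any factor.

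Plin2, which codes for perilipin 2, the coat protein of droplets in most cells outside fat, was higher in both NASH groups than in wildtype. Levels are given throughout as log2 of the signal over the 75th percentile of all probes on the same array, so that 0 is that percentile and a difference of 1 is a doubling of signal. On the 5 wildtype arrays Plin2 read 5.16, 5.13, 5.18, 5.21 and 5.25. On the NASH CD11c-negative arrays it read 6.74, 6.78, 6.73, 6.85 and 6.87, and on the NASH CD11c-positive arrays 7.09, 7.08, 7.11, 7.07 and 7.18. The 3 groups did not overlap, with wildtype lowest and CD11c-positive highest. Relative to wildtype the log2 change was 1.61 ± 0.035 (SE, n = 5 a group; 3.05-fold) in CD11c-negative cells, with an adjusted p of 1.37e-14 in the limma fit, and 1.92 (3.79-fold; adjusted p = 1.44e-15) in CD11c-positive cells. CD11c-positive exceeded CD11c-negative cells by 0.31 (1.24-fold; adjusted p = 3.72e-06). In bulk samples such as these, fewer cells of a type and less RNA per cell cannot be told apart.

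**Figure D1:**
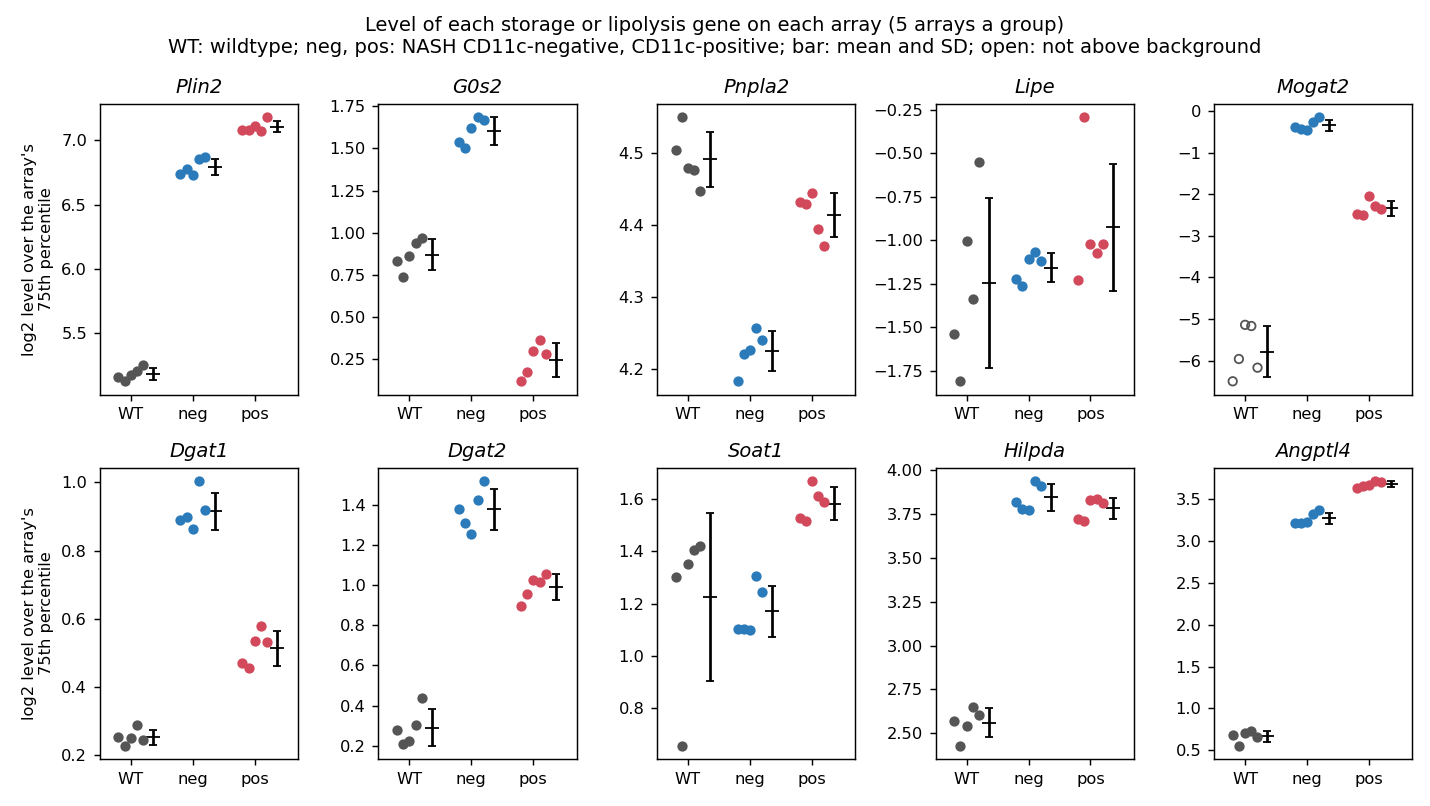
Level of each of the 10 genes on each array, as log2 over the array's 75th percentile, with 5 arrays a group; the bar is the mean and SD, and each panel has its own scale. Plin2 and Angptl4 rise from wildtype to NASH CD11c-negative to CD11c-positive without overlap, G0s2 is highest in CD11c-negative and lowest in CD11c-positive, and the open Mogat2 points of wildtype are not above background.

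The 3 acyltransferases of glyceride synthesis had one order, with wildtype lowest, NASH CD11c-negative highest and CD11c-positive between them. Mogat2, which codes for a monoacylglycerol acyltransferase best known from the intestine, was well above background on none of the wildtype arrays and on all 10 NASH arrays. It read -0.40, -0.43, -0.46, -0.27 and -0.14 in CD11c-negative cells and -2.48, -2.49, -2.05, -2.29 and -2.35 in CD11c-positive cells. The signal of its probe on the wildtype arrays lay between -6.50 and -5.14, with a mean of -5.79. Set against the dimmest signal called well above background on each wildtype array, Mogat2 was at least 14.6-fold higher in CD11c-negative cells and at least 3.68-fold higher in CD11c-positive cells. It passed the filter on low signals through the NASH arrays alone, so it had to differ from wildtype, and no test is given for these bounds. Between the 2 NASH groups, both measured, Mogat2 was 3.98-fold lower in CD11c-positive cells, a log2 change of -1.99 ± 0.221 (SE, n = 5 a group; limma adjusted p = 3.30e-06). Ordered from the highest change to the lowest, it ranked 13372 of 13390 genes in that comparison. With the normexp background correction the fitted changes from wildtype shrank to 2.36 and 0.92 on the log2 scale, below both bounds.

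Dgat1 and Dgat2 code for the unrelated enzymes that add the last acyl chain of triglyceride. Dgat1 read 0.25, 0.23, 0.25, 0.29 and 0.24 in wildtype, 0.89, 0.90, 0.86, 1.00 and 0.92 in CD11c-negative NASH cells, and 0.47, 0.45, 0.53, 0.58 and 0.53 in CD11c-positive cells. Dgat2 read 0.28, 0.21, 0.22, 0.30 and 0.44 in wildtype, 1.38, 1.31, 1.26, 1.42 and 1.52 in CD11c-negative cells, and 0.89, 0.96, 1.02, 1.02 and 1.06 in CD11c-positive cells. For neither gene did any 2 groups overlap. Relative to wildtype, Dgat2 rose 2.12-fold in CD11c-negative cells (log2 change 1.09 ± 0.054 SE, limma adjusted p = 1.31e-10) and 1.62-fold in CD11c-positive cells (adjusted p = 1.67e-08). Dgat1 rose 1.58-fold (0.66 ± 0.031 SE, adjusted p = 7.34e-11) and 1.20-fold (adjusted p = 2.13e-06). From CD11c-negative to CD11c-positive cells both fell by similar amounts, with log2 changes of -0.40 for Dgat1 (adjusted p = 8.22e-08) and -0.39 for Dgat2 (adjusted p = 2.95e-05).

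Soat1, which codes for the enzyme that esterifies cholesterol in macrophages, did not take that order. Its levels were 1.30, 0.66, 1.35, 1.40 and 1.42 in wildtype, 1.10, 1.10, 1.10, 1.30 and 1.25 in CD11c-negative NASH cells, and 1.53, 1.52, 1.67, 1.61 and 1.59 in CD11c-positive cells. The CD11c-positive arrays lay above all others, and wildtype overlapped CD11c-negative cells, through wildtype replicate 2, the lowest of the 15, and through the levels near 1.30. Soat1 was 1.33-fold higher in CD11c-positive than in CD11c-negative cells (log2 change 0.41 ± 0.118 SE, n = 5 a group, limma adjusted p = 0.00879) and 1.28-fold higher than in wildtype (0.36, adjusted p = 0.0126). CD11c-negative cells and wildtype were not told apart, at -0.06 with a 95% interval from -0.31 to 0.20 (adjusted p = 0.676). Without wildtype replicate 2 that difference was -0.20 (adjusted p = 0.00277), called lower in CD11c-negative cells. The call against wildtype in CD11c-positive cells was lost under quantile normalization (0.24, adjusted p = 0.0803), and on slide 1 alone Soat1 missed the threshold in that comparison and against CD11c-negative cells (0.42 in both, adjusted p = 0.0952 and 0.126).

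Pnpla2, the gene of adipose triglyceride lipase, changed little next to the coat and synthesis genes. It read 4.50, 4.55, 4.48, 4.48 and 4.45 in wildtype, 4.18, 4.22, 4.23, 4.26 and 4.24 in CD11c-negative NASH cells, and 4.43, 4.43, 4.44, 4.39 and 4.37 in CD11c-positive cells. No 2 groups overlapped, CD11c-negative being lowest, but wildtype and CD11c-positive cells nearly touched. The lowest wildtype array was at 4.447 and the highest CD11c-positive array at 4.444. CD11c-negative cells were 1.20-fold below wildtype (log2 change -0.27 ± 0.025 SE, n = 5 a group, limma adjusted p = 2.17e-07), and CD11c-positive cells were 1.14-fold above CD11c-negative cells (0.19, adjusted p = 2.24e-05). The change of CD11c-positive cells from wildtype was -0.08 (adjusted p = 0.0126). It missed the threshold with normexp (-0.05), on slide 1 alone (-0.08, adjusted p = 0.0547) and on slide 2 alone (-0.06, adjusted p = 0.147). Quantile normalization enlarged both changes from wildtype, to -0.58 in CD11c-negative and -0.38 in CD11c-positive cells.

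Lipe, the gene of hormone-sensitive lipase, which cuts diglyceride and cholesteryl ester, was scattered and did not pass the test in any comparison. It was well above background on all 15 arrays, at -1.54, -1.81, -1.00, -1.34 and -0.55 in wildtype, -1.22, -1.26, -1.11, -1.07 and -1.12 in CD11c-negative NASH cells, and -1.23, -0.29, -1.02, -1.07 and -1.02 in CD11c-positive cells. The groups overlapped, and wildtype spanned more than the other two except for CD11c-positive replicate 2, which stood above the rest. The log2 change was 0.09 from wildtype to CD11c-negative cells, with a 95% interval from -0.36 to 0.54 (limma adjusted p = 0.701). It was 0.23 between the NASH groups (interval -0.22 to 0.68, adjusted p = 0.377) and 0.32 from wildtype to CD11c-positive cells (interval -0.13 to 0.77, adjusted p = 0.176). Without wildtype replicate 5 the last value was 0.50 and passed (adjusted p = 0.0224).

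Both intracellular inhibitors of adipose triglyceride lipase were higher in CD11c-negative NASH cells than in wildtype, and they parted in CD11c-positive cells. G0s2, a small protein that binds the lipase and blocks it, read 0.83, 0.74, 0.86, 0.94 and 0.97 in wildtype. In CD11c-negative cells it read 1.54, 1.50, 1.62, 1.69 and 1.67, above every wildtype array, and in CD11c-positive cells 0.12, 0.17, 0.30, 0.36 and 0.28, below every wildtype array. The log2 change from wildtype was 0.73 ± 0.056 (SE, n = 5 a group; 1.66-fold; limma adjusted p = 1.86e-08) in CD11c-negative cells and -0.62 (1.54-fold lower; adjusted p = 1.07e-07) in CD11c-positive cells. Between the NASH groups it was -1.36, or 2.56-fold lower in CD11c-positive cells (adjusted p = 8.65e-11), and it ranked 13315 of 13390 genes from the highest change to the lowest.

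Hilpda, the hypoxia-inducible lipid droplet protein, which also inhibits the lipase, kept its rise in both NASH groups. It read 2.57, 2.43, 2.54, 2.65 and 2.60 in wildtype, 3.82, 3.78, 3.77, 3.94 and 3.91 in CD11c-negative cells, and 3.72, 3.71, 3.83, 3.83 and 3.81 in CD11c-positive cells. Every NASH array lay above every wildtype array, and the NASH groups overlapped. The rise was 2.43-fold in CD11c-negative cells (log2 change 1.28 ± 0.046 SE, n = 5 a group, limma adjusted p = 3.91e-12) and 2.33-fold in CD11c-positive cells (1.22, adjusted p = 5.15e-12). The NASH groups differed by -0.06, with a 95% interval from -0.16 to 0.04 (adjusted p = 0.277), and with the slide as a block the difference was -0.09 and passed (adjusted p = 0.00844). Hilpda was the one gene of the 10 with a second probe, whose changes in the fit over all kept probes were 1.26, -0.05 and 1.21 in the 3 comparisons.

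Angptl4, a secreted protein that inactivates lipoprotein lipase and so limits the supply of fatty acids from lipoproteins, had the largest rise from wildtype among the 9 genes that were above background in every group. It read 0.68, 0.55, 0.71, 0.72 and 0.66 in wildtype, 3.21, 3.22, 3.23, 3.32 and 3.37 in CD11c-negative NASH cells, and 3.63, 3.66, 3.68, 3.71 and 3.71 in CD11c-positive cells. No 2 groups overlapped, and CD11c-positive cells were highest. The rise from wildtype was 6.09-fold in CD11c-negative cells (log2 change 2.61 ± 0.039 SE, n = 5 a group, limma adjusted p = 2.33e-16) and 8.07-fold in CD11c-positive cells (3.01, adjusted p = 4.03e-17). CD11c-positive exceeded CD11c-negative cells 1.33-fold (0.41, adjusted p = 7.27e-07).

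Counted together, and with Mogat2 left out for the reason given above, 6 of the other 9 genes rose and 1, Pnpla2, fell from wildtype to CD11c-negative NASH cells, while Soat1 and Lipe did not pass. In that comparison 48.3% of the 13390 genes were called higher and 28.5% lower, and the median log2 change was 0.73 over the 9 genes and 0.13 over all genes. Since the genes were chosen with earlier results of these data known, such counts are a description only. Plin2, Dgat2, Hilpda and Angptl4, 4 of the 9, rose by 2-fold or more, against 694 higher and 833 lower of all 13390 genes. For 7 of the 9 the groups did not overlap, and the same was true of 64.1% of all genes. From CD11c-negative to CD11c-positive cells, where all 10 were measured in both groups, 4 genes rose (Plin2, Pnpla2, Soat1 and Angptl4) and 4 fell (G0s2, Mogat2, Dgat1 and Dgat2). Of all genes 29.9% were called higher and 23.2% lower in this comparison, and the medians were 0.06 for the 10 genes and 0.01 for all. Groups that did not overlap were found for 8 of the 10 and for 39.5% of all genes. G0s2 and Mogat2 passed 2-fold, both downward, against 222 higher and 159 lower of all 13390 genes. CD11c-positive cells against wildtype, which shares its arrays with the other comparisons, gave 6 of the 9 genes higher, 2 lower (G0s2 and Pnpla2) and Lipe not called. Of all genes 51.4% were called higher and 26.3% lower, the groups did not overlap for 8 of the 9 and for 69.3% of all, and the medians were 0.36 for the 9 genes and 0.16 for all. Plin2, Hilpda and Angptl4, 3 of the 9, rose by 2-fold or more, against 891 higher and 940 lower of all 13390 genes. Quantile normalization moved the median of all genes from 0.13 to 0.00092 in CD11c-negative cells and from 0.16 to 0.05 in CD11c-positive cells, and the share of calls that were higher from 62.9% to 49.0% and from 66.2% to 54.4%.

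**Figure D2:**
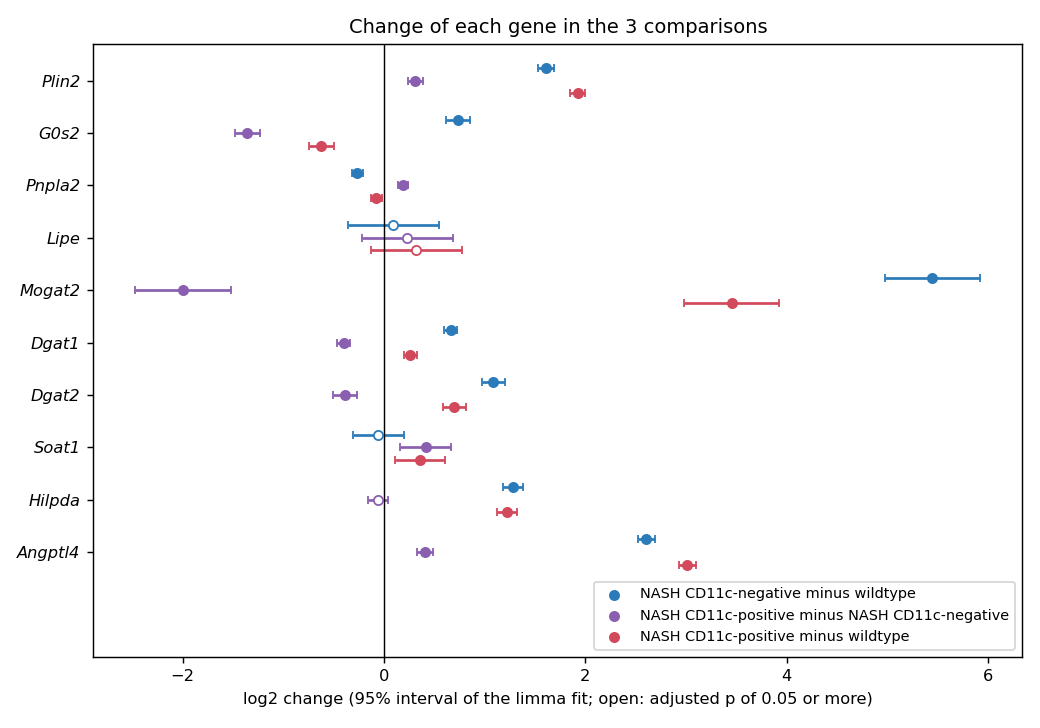
Log2 change of each gene in the 3 comparisons, with the 95% interval of the limma fit; open points did not pass an adjusted p of 0.05. Plin2, Hilpda and Angptl4 lie right of 0 in both comparisons with wildtype, G0s2 lies right of it in CD11c-negative cells (0.73) and left in CD11c-positive cells (-0.62), and the Mogat2 points against wildtype are fitted values of a probe not above background there.

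Differences between 2 genes on the same array do not depend on the scaling between arrays, and 6 pairs were compared in the 3 comparisons, with p-values from an exact 2-sided permutation test adjusted over the 18. The test passed in 13, each with an exact p of 0.00794, the smallest that 5 arrays against 5 can give, and an adjusted p of 0.011. Relative to Pnpla2, the gene of the lipase it inhibits, G0s2 rose by 1.00 on the log2 scale from wildtype to CD11c-negative NASH cells, changed by -1.54 from these to CD11c-positive cells, and by -0.55 from wildtype to CD11c-positive cells. Hilpda relative to Pnpla2 changed by 1.55, -0.25 and 1.30 in the same order. For Plin2 relative to Pnpla2 the changes were 1.87, 0.12 and 2.00, the second of which was lost with normexp (0.17, adjusted p = 0.0989 in the exact test). So both inhibitors stood higher against the lipase gene in CD11c-negative cells than in wildtype, and in CD11c-positive cells Hilpda did and G0s2 stood lower.

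Between the acyltransferases, Dgat2 rose more than Dgat1 from wildtype in both NASH groups, by 0.42 in CD11c-negative and 0.44 in CD11c-positive cells. Between the NASH groups their difference moved by 0.01, and the exact test did not pass (adjusted p = 0.804). Soat1 relative to Dgat1 changed by -0.72 from wildtype to CD11c-negative cells and by 0.81 from these to CD11c-positive cells, both past the exact test. Against wildtype the CD11c-positive value was 0.10 (adjusted p = 0.941 in the exact test). Lipe relative to Pnpla2 did not pass in any comparison, at 0.36, 0.04 and 0.40 (adjusted p = 0.204, 0.952 and 0.248 in the exact test), and it passed against wildtype in both NASH groups under quantile normalization (0.70 and 0.77) and without wildtype replicate 5 (0.54 and 0.58).

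**Figure D3:**
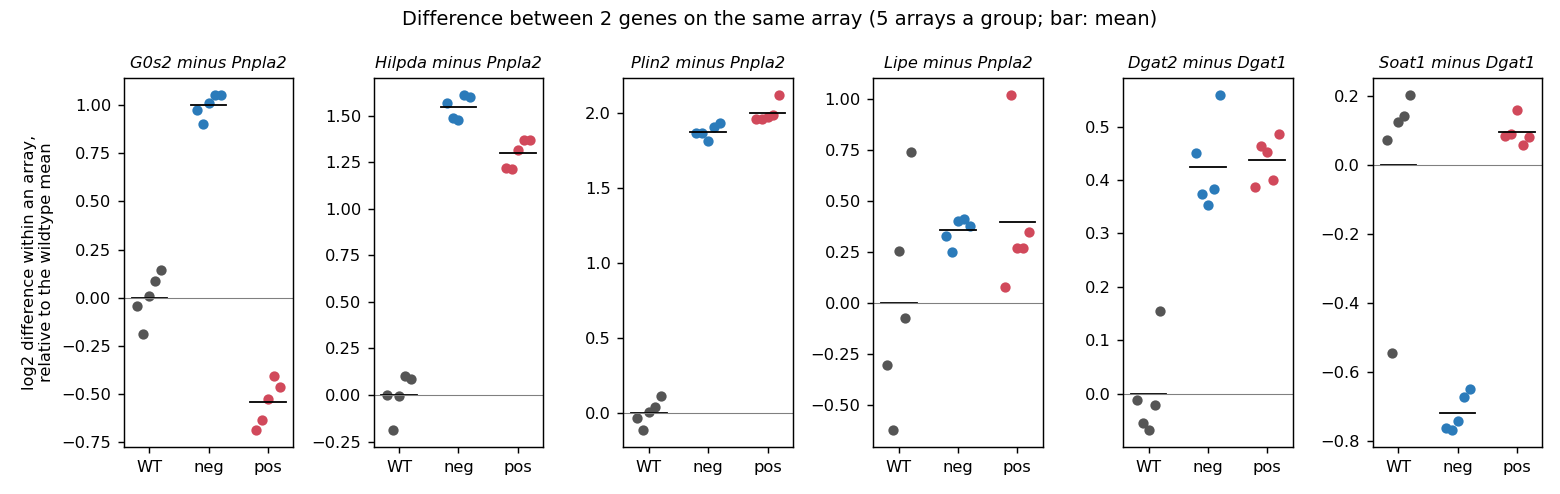
Difference in log2 signal between 2 genes on the same array, relative to the wildtype mean, with 1 point an array and the bar at the group mean. G0s2 minus Pnpla2 lies near 1.00 in CD11c-negative cells and near -0.55 in CD11c-positive cells, Hilpda and Plin2 minus Pnpla2 are above 0 in both, and Lipe minus Pnpla2 scatters across 0 in wildtype.

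The wider machinery was read through 9 lists of genes, whose counts stand against the shares of all genes called in the same comparison, 48.3% higher and 28.5% lower for the first. In CD11c-negative NASH cells against wildtype, the droplet coat list had 3 of 5 tested genes higher and 1 lower, with a median log2 change of 0.78. Besides Plin2 these were Plin5 (1.12, limma adjusted p = 1.39e-05) and Plin3 (0.78, adjusted p = 8.07e-11), both perilipins, and Cideb, a droplet protein of the liver that helps to load lipoproteins, was lower (-0.36, adjusted p = 0.00102). Plin5 was near background, with a mean of -3.42 in wildtype, where 4 of 5 arrays were above it. Plin1, the perilipin of fat cells, was not well above background on any array. Triglyceride synthesis had 13 of 16 higher and 2 lower (median 0.43). Agpat2, which adds the second acyl chain, rose by 1.65 (adjusted p = 1.94e-12), and Lpin3, a phosphatidate phosphatase, changed by -1.05 (adjusted p = 8.28e-09). Mogat1, another monoacylglycerol acyltransferase, was called higher but was above background on 4 of 5 CD11c-negative, 3 of 5 CD11c-positive and none of the wildtype arrays. The 13 include both Mogat1 and Mogat2, which passed the filter through NASH arrays alone and so had to differ from wildtype. Droplet formation had 9 of 10 higher and none lower (median 0.27), led by Acsl3, an acyl-CoA synthetase of nascent droplets (1.09, adjusted p = 4.54e-11), and Spast (0.67, adjusted p = 1.34e-06). Fatty acid activation had 10 of 11 higher and none lower (median 0.38), with Acsl3 again first and then Acot1 (0.82, adjusted p = 2.18e-09), a thioesterase whose probe may also read its near-identical neighbour Acot2.

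Lipolysis and its control were split, with 8 of 14 higher and 4 lower (median 0.29). Gk, glycerol kinase, rose by 1.79 (limma adjusted p = 2.69e-12), and Abhd5, the protein that activates adipose triglyceride lipase, rose by 1.01 (adjusted p = 1.60e-11). Ces1d, a carboxylesterase, fell by 0.95 on the log2 scale (adjusted p = 4.67e-07). Lipoprotein lipase and its control had 5 of 8 higher and 2 lower (median 0.32): Lpl itself rose by 1.44 (adjusted p = 4.27e-12), beside its inhibitor Angptl4, and Gpihbp1, which anchors the lipase to endothelium, changed by -0.52 (adjusted p = 1.92e-08). Sterol ester storage and turnover had 6 of 8 higher and none lower (median 0.27), with Nceh1, a cholesteryl ester hydrolase, at 0.91 (adjusted p = 5.28e-11) and Npc2, a lysosomal cholesterol carrier, at 0.84 (adjusted p = 3.21e-10).

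Among the regulators and targets of PPAR outside storage, 15 of 20 were higher and 3 lower (median 0.43). Fabp5, a fatty acid binding protein, rose by 2.46 (limma adjusted p = 6.68e-18) and Pparg, the receptor PPAR gamma, by 1.65 (adjusted p = 2.93e-14), while Ppargc1b, a coactivator, and Rxra, the partner receptor, fell by 1.03 and 0.64 on the log2 scale. The list of hypoxia-inducible factors and targets had 12 of 17 higher and 2 lower (median 0.39). Vegfa rose by 1.73 (adjusted p = 2.10e-13) and Egln3 by 1.81 (adjusted p = 2.12e-08), the latter above background on 2 of 5 wildtype arrays, and Adm and Ndrg1, also known targets, changed by -1.06 and -0.37. Under quantile normalization the counts higher and lower became 11 and 5 for the PPAR list, 5 and 3 for droplet formation, 6 and 6 for lipolysis, 7 and 1 for fatty acid activation, 11 and 1 for triglyceride synthesis, and 11 and 3 for the hypoxia list. Under that normalization 36.1% of all genes were called higher and 37.6% lower.

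**Figure D4:**
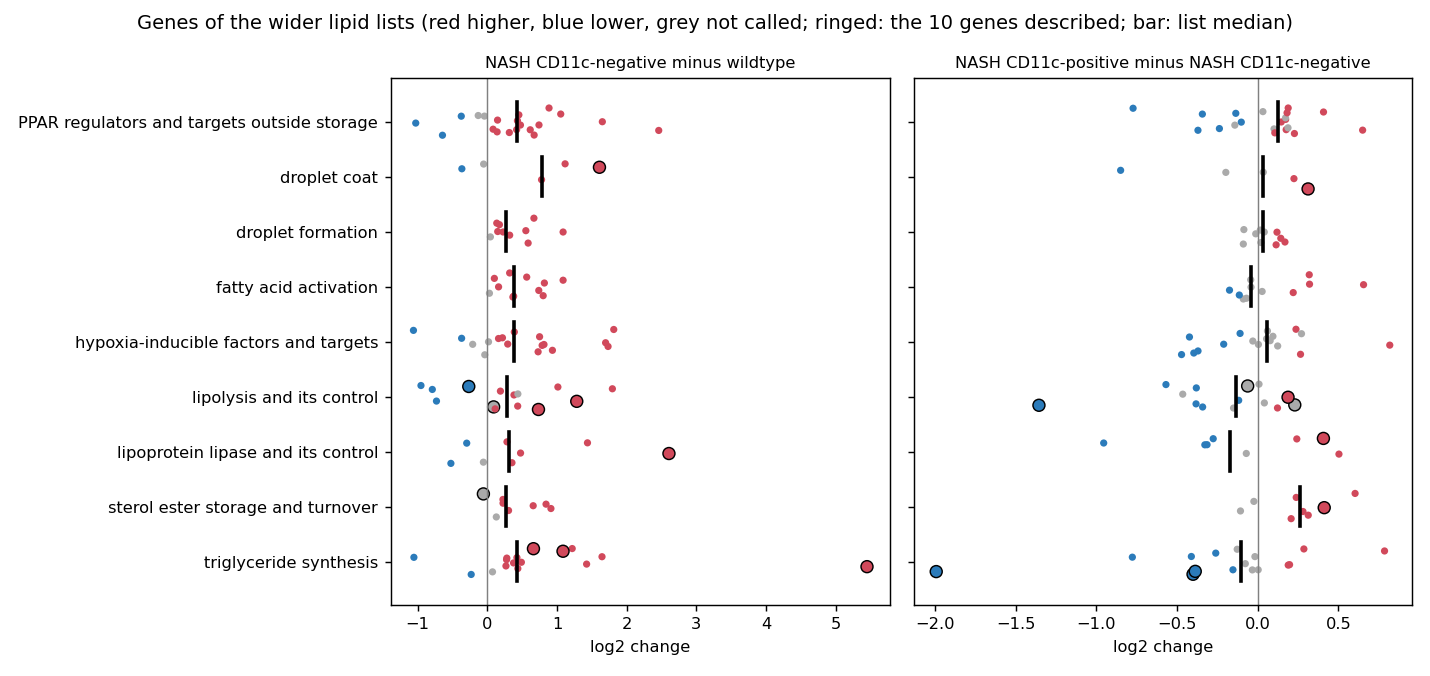
Log2 change of every tested gene of the 9 lists, from wildtype to NASH CD11c-negative (left) and from CD11c-negative to CD11c-positive cells (right), on separate axes; the 10 genes described are ringed and black bars are list medians. On the left the medians lie between 0.27 and 0.78, and on the right between -0.17 and 0.26, with sterol ester storage highest.

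From CD11c-negative to CD11c-positive NASH cells the list medians lay between -0.17 and 0.26, and 29.9% of all genes were called higher and 23.2% lower. Sterol ester storage and turnover had 6 of 8 genes higher and none lower (median 0.26), Soat1 among them, with Npc1, the lysosomal cholesterol exporter, at 0.60 (limma adjusted p = 2.01e-08) and Soat2, the cholesterol acyltransferase of liver and gut, at 0.31 (adjusted p = 0.018). Triglyceride synthesis had 4 of 16 higher and 7 lower (median -0.10). Among these Lpin1 rose by 0.79 (adjusted p = 1.22e-07), and Gpat3, a glycerol-3-phosphate acyltransferase, changed by -0.78 (adjusted p = 9.48e-09). Lipolysis had 2 of 14 higher and 6 lower (median -0.13), with Ldah, a droplet hydrolase, at 0.12 (adjusted p = 0.00158) and Ces1d at -0.38 (adjusted p = 0.00431). The droplet coat list had 2 of 5 higher and 1 lower (median 0.03), with Plin3 at 0.22 (adjusted p = 0.00014) and Plin5 at -0.85 (adjusted p = 0.000399). Plin5 was above background on 4 of 5 CD11c-positive arrays, with a mean of -3.15. In the lipoprotein lipase list 3 of 8 were higher and 4 lower (median -0.17), with Sel1l, needed for the lipase to leave the endoplasmic reticulum, at 0.50 (adjusted p = 2.73e-08) and Gpihbp1 at -0.96 (adjusted p = 9.72e-11).

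Of the PPAR list 9 of 20 were higher and 6 lower in CD11c-positive cells (median 0.13), led by Fabp5 (0.65, limma adjusted p = 5.25e-11) and, downward, Pdk4, a brake on pyruvate oxidation (-0.77, adjusted p = 1.04e-06). The hypoxia list had 3 of 17 higher and 6 lower (median 0.05), with Vegfa at 0.82 (adjusted p = 4.31e-09) and Adm at -0.47 (adjusted p = 1.40e-06). Fatty acid activation had 4 of 11 higher and 2 lower (median -0.04), with Acot7 at 0.66 (adjusted p = 4.47e-09) and Slc27a4 at -0.17 (adjusted p = 0.0149). Droplet formation had 4 of 10 higher and none lower (median 0.03), with Vcp at 0.17 (adjusted p = 0.0066). The same lists in CD11c-positive cells against wildtype had 8 of 8 sterol ester genes higher (median 0.55), 13 of 16 triglyceride synthesis genes higher and 3 lower, and 5 of 14 lipolysis genes in each direction, where 51.4% of all genes were called higher and 26.3% lower. Here too the 13 include Mogat1 and Mogat2, neither above background in wildtype. Nceh1 (1.19), Agpat4 (1.50), Gk (1.84), Lpl (1.68), Acot7 (1.46), Vegfa (2.55) and Fabp5 (3.11) gained most in their lists, the 10 genes apart, with limma adjusted p-values of 1.98e-12 or less.

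Cell identity and sort were checked on the same arrays. Adgre1, the gene of F4/80, stood at 7.34 ± 0.047 in wildtype, 7.74 ± 0.066 in CD11c-negative and 7.31 ± 0.024 in CD11c-positive cells (SD, n = 5), and Itgax, the gene of CD11c, at 4.21 ± 0.031, 5.93 ± 0.071 and 7.29 ± 0.028, so that CD11c-negative NASH cells lay between the other two. Under quantile normalization Adgre1 changed from wildtype by -0.06 in CD11c-negative cells (limma adjusted p = 0.0451). In CD11c-positive cells the change under that normalization was -0.37 (limma adjusted p = 3.84e-09). Mc4r was not well above background on any array and therefore checks nothing of the genotype. Other cells were followed by the summed linear level of marker lists, in multiples of the 75th percentile. Neutrophil markers (12 of 13 tested, S100a9 and S100a8 brightest) summed to 418 to 438 in wildtype, 1593 to 1744 in CD11c-negative and 651 to 684 in CD11c-positive NASH cells. In CD11c-negative cells 11 of the 12 were higher than in wildtype, in CD11c-positive cells 11 of 12 were lower than in CD11c-negative cells, and 9 of 12 were higher and 3 lower than in wildtype. Mogat2, Dgat1 and Dgat2 took the same order of groups as this sum, and the part of neutrophil RNA in their levels was not tested. G0s2 was highest where the sum was highest and lowest in CD11c-positive cells, while the sum was lowest in wildtype. The 3 markers lower in CD11c-positive cells than in wildtype were Csf3r, Cxcr2 and Mmp9. Cxcr2 had mean levels of -0.62, 0.21 and -0.99 in wildtype, CD11c-negative and CD11c-positive cells, and Mmp9 had -0.06, 1.12 and -0.57. Both took the order of groups of G0s2, and Csf3r was highest in wildtype. The part of neutrophil RNA in the level of G0s2 was not tested. Monocyte markers (9 of 10 tested, Nr4a1 and Cx3cr1 brightest) summed to 183 to 203, 393 to 445 and 327 to 347 in the same order of groups, and their part was not tested either.

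**Figure D5:**
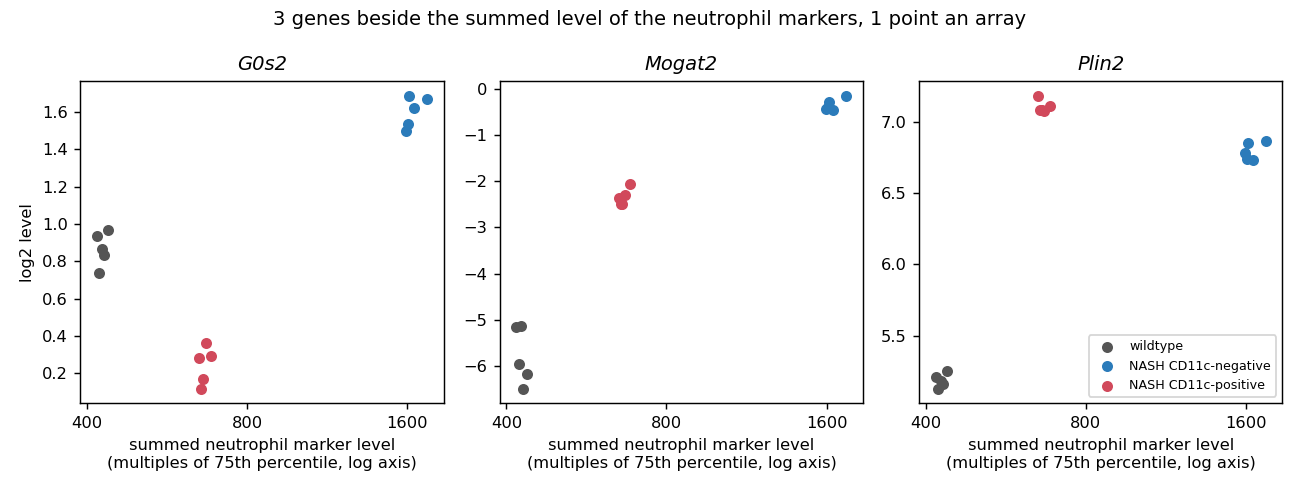
Level of G0s2, Mogat2 and Plin2 on each array against the summed level of 12 neutrophil markers on the same array, in multiples of the 75th percentile on a log axis. Mogat2 follows the order of the sum over the 3 groups. G0s2 is highest in CD11c-negative and lowest in CD11c-positive cells, and Plin2 is highest in CD11c-positive cells at a sum of 651 to 684.

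Fat cell markers summed to 0.89 to 1.03 in wildtype, 0.68 to 0.85 in CD11c-negative and 0.67 to 0.78 in CD11c-positive cells (5 of 8 tested, Adrb3 and Cdo1 brightest), and the defining Adipoq and Lep were not above background on any array. Hepatocyte markers (14 of 15, Trf and Serpina1a brightest) summed to 352 to 377, 351 to 382 and 294 to 313, and 4 of the 14 were called higher and 8 lower in CD11c-negative cells than in wildtype (1 and 9 under quantile normalization). Trf, the brightest, had a mean level of 7.85 in wildtype and 8.13 in CD11c-negative cells, whereas Serpina1a had 5.81 and 4.45. From CD11c-negative to CD11c-positive cells 1 of the 14 was higher and 10 lower (median -0.33). The part of either cell type in the levels of the 10 genes was not tested. Stellate cell markers (9 of 11, Ecm1 and Dcn brightest; Reln and Des not above background on any array) summed to 30.5 to 33.4, 25.7 to 28.5 and 26.3 to 29.3. Ecm1, the brightest, had a mean level of 4.60 in wildtype and 4.00 in CD11c-negative cells, whereas 6 of the 9 markers were called higher in CD11c-negative cells than in wildtype and 2 lower (median 0.40), with the collagen genes Col1a1 at 1.41 and Col3a1 at 1.18. From CD11c-negative to CD11c-positive cells 2 were higher and 4 lower, and the part of stellate cells was not tested. Sinusoidal endothelial markers (12 of 12, Clec4g and Aqp1 brightest) summed to 558 to 606, 336 to 357 and 220 to 228, the same order of groups as Gpihbp1, and their part in its level was not tested. Dendritic cell markers (9 of 10, Irf8 and Wdfy4 brightest) summed to 140 to 152, 129 to 143 and 206 to 217. Irf8, the brightest, was higher in CD11c-negative cells (mean level 6.48) than in wildtype (5.98), whereas 7 of the 9 markers were called lower there (median -1.18), with Flt3 at a mean of 1.36 in wildtype and -1.78 in CD11c-negative cells. From CD11c-negative to CD11c-positive cells 8 of 9 were higher and none lower (median 1.26). Soat1 was highest where the sum was highest, and the part of dendritic cells in its level was not tested. T and NK cell markers (11 of 11, Nkg7 and Cd4 brightest) summed to 46.3 to 48.7, 31.3 to 37.1 and 33.6 to 36.5. In CD11c-negative cells 1 of the 11 was called higher than in wildtype and 8 lower (median -1.22). The sums of the NASH groups overlapped, whereas 8 of the 11 were higher in CD11c-positive than in CD11c-negative cells and 1 lower (median 0.43). B and plasma cell markers (6 of 8, Jchain and Cd79b brightest) summed to 62.1 to 70.3, 38.7 to 46.1 and 22.7 to 25.5. Macrophage identity genes (14 of 15, Cd5l and Csf1r brightest) summed to 4115 to 4512, 3705 to 4059 and 2980 to 3238. Yet 7 of these 14, Adgre1, Ptprc, Lyz2, Fcgr1, C1qa, C1qb and C1qc, were called higher in CD11c-negative cells than in wildtype. The 6 lower were Clec4f, Vsig4, Timd4, Cd5l, Marco and Mertk, and the median was 0.12. Of the changes of 2-fold or more, 0 were upward and 3 downward. Under quantile normalization 2 of the 14 were called higher and 10 lower. From CD11c-negative to CD11c-positive cells 1 was higher and 11 lower (median -0.28).

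The 15 arrays lay on 2 slides, each of which held all 3 groups, and for most of the 10 genes the change was similar on both. From wildtype to CD11c-negative cells the log2 change on slide 1 and on slide 2 was 1.59 and 1.63 for Plin2, 0.74 and 0.73 for G0s2, and 2.57 and 2.65 for Angptl4. Hilpda gave 1.27 and 1.30, Dgat1 0.64 and 0.70, Dgat2 1.08 and 1.10, and Pnpla2 -0.30 and -0.21. From CD11c-negative to CD11c-positive cells G0s2 gave -1.41 and -1.36, Mogat2 -2.06 and -2.02, Dgat1 -0.42 and -0.41, Dgat2 -0.39 and -0.44, Plin2 0.33 and 0.26, and Angptl4 0.42 and 0.35. With the slide as a block the first comparison gave 1.61 for Plin2 and 0.73 for G0s2, and the second gave -1.39 for G0s2 and -2.04 for Mogat2. Soat1 was less even, at -0.0012 and -0.14 from wildtype to CD11c-negative cells, and called lower on slide 2 (limma adjusted p = 0.0221). Lipe changed sign between the slides in that comparison, at 0.25 and -0.15.

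The genes most like each of 9 of the 10 over the 15 arrays (Mogat2, not above background in wildtype, was left out) were found by Pearson correlation of log2 levels, as a description: the 3 groups set most of each value, and the arrays share them. The same 3 group means lie behind r = 0.999 of Plin2 with Anxa2, Ccl9 and Sema4d, and of Angptl4 with Ccl9, Blnk and Lag3. Hilpda was most like Ccrl2, Hsph1 and H2-DMb1 (r = 0.999 for each), and Dgat2 most like Cfb (0.998), Vamp8 and Cacna1s (0.996 for both). Dgat1 was most like Lrg1 and Hp (0.995 for both) and Crispld2 (0.994). G0s2 had Hdc (0.995), Stfa2l1 (0.991) and Asprv1 (0.988) as its nearest, and Pnpla2 had Gramd3 (0.970), Spib (0.969) and Arl3 (0.964). For Soat1 the nearest were Fkbp15 (0.956), Lrp1 (0.946) and Iars2 (0.945), and for Lipe, whose groups overlap, Nme7 (0.901), Mpzl3 (0.870) and Arnt (0.725). Among the 10 genes themselves, Plin2 and Angptl4 were most alike (r = 0.999), followed by Hilpda with Angptl4 (0.983) and with Plin2 (0.978), whereas Pnpla2 ran against Dgat1 (-0.953).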

How the data were processed

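The data are 15 one-colour Agilent arrays, 5 a group. Per the file headers, the authors' scanner files were made with Agilent Feature Extraction 10.7.3.1, and the deposited spot intensity used here is its processed signal, already background-corrected. The deposited table of the series holds log2 values; its columns differed from the centred values computed here by a median of 0.0015, so it served as an alternative. Spots flagged as outliers and control spots were left out, repeated spots were averaged, and log2 intensity was centred on each array's 75th percentile (signals of 359 to 562). Probes were named through their accession; 26582 of 55681 had a gene name. A probe was kept if well above background on at least 4 of the 5 arrays of a group, the brightest probe stood for a gene, and 13390 genes were fitted with limma 3.58.1 (lmFit and eBayes, R 4.3.3) on all 15 arrays, with Benjamini-Hochberg adjustment and a threshold of 0.05. Between 45.8% and 58.0% of spots per array were well above background, no spot was saturated, and the number of arrays limits the precision. The median SD of a gene within a group was 0.07 to 0.09 on the log2 scale. Gene pairs were compared with exact permutation tests.

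The members and all gene lists were chosen with earlier results of these data known. Besides the 10 genes, the text names from each list and comparison the passing genes with the largest rise and fall (up to 2 each), Itgax, Adgre1 and Mc4r, the 2 brightest genes of each marker list, and the 3 genes most like each of the 10 but Mogat2. One result that this rule covers is not reported here, though the list counts include it. Exceptions named after their values were seen are Plin1, Adipoq, Lep, Reln, Des, Col1a1, Col3a1, Flt3, Csf3r, Cxcr2 and Mmp9. The macrophage identity genes listed by direction, apart from Adgre1 and Cd5l, are exceptions as well. The alternatives were normexp and quantile normalization, other filters, the slide and the replicate number as blocks, each slide alone, other probe rules and priors, array weights, the deposited values and leaving out each array.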

Additional observations from a re-analysis of the deposited data

Results flagged for a closer look

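Of 30 sets of 5 arrays (10 genes in 3 groups), 2 held an array that stood apart, with a gap to the nearest other array of more than 0.71 of the whole range; chance gives about 1 in 20. Lipe in NASH CD11c-positive replicate 2 was at -0.2914, where the other 4 arrays of the group lay between -1.228 and -1.02. Soat1 in wildtype replicate 2 was at 0.656, where the other 4 lay between 1.30 and 1.419. Other genes of the 10 did not stand apart on either array.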

How the results depend on the processing

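Each change of the 10 genes was recomputed under 29 alternatives (28 for Mogat2, which does not pass a filter on all 15 arrays), and each change of a gene pair under 22. Of the 1263 values so obtained, 7 lost the call, 10 gained it and 8 changed sign, none of which had been called. A further 1202 kept their side of the threshold and their direction. The remaining 36, pair values on single slides, carry no test, since 3 arrays against 3 cannot reach 0.05; they moved by less than 1 SD, and 4 of them changed sign. Plin2, G0s2, Dgat1, Dgat2 and Angptl4 kept direction and call in all 3 comparisons under every alternative tried, and Mogat2 did between the NASH groups. The count of genes lower in CD11c-negative cells than in wildtype rose from 1 to 2 on slide 2 alone, and was 1 to 2 over the fits that left out 1 array, 2 without wildtype replicate 2. The count lower in CD11c-positive cells than in wildtype fell from 2 to 1 with normexp, on slide 1 alone and on slide 2 alone, by the loss of Pnpla2. Lipe changed sign against wildtype on slide 2, to -0.1485 in CD11c-negative and -0.09384 in CD11c-positive cells, and without single arrays the first ranged from -0.04925 to 0.2654. Lipe relative to Pnpla2 between the NASH groups was -0.1564 with normexp and -0.1134 to 0.1213 without single arrays. Dgat2 relative to Dgat1 between the NASH groups was -0.01038 with normexp and -0.003979 to 0.04728 without single arrays, and Soat1 relative to Dgat1 in CD11c-positive cells against wildtype ranged from -0.04081 to 0.1462. The cause of these shifts was not tested.

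Same-numbered arrays of different groups had correlations of their deviations from -0.198 to 0.373 (median 0.234), against -0.352 to 0.327 (median -0.09) for different numbers. These medians mix number with slide. Whatever their numbers, pairs on the same slide lay between 0.0084 and 0.373, and pairs on different slides between -0.352 and -0.0039. CD11c-positive array 3 was on another slide than the number 3 arrays of wildtype (-0.171) and CD11c-negative cells (-0.198). The numbers were not taken to pair the arrays, since the labels tie them to nothing shared and not every pair was over 0.1, although numbers 1, 4 and 5 were over 0.2 in every pair of groups; 6 of 15 arrays were closest to their own number in both other groups. With the number as a replicate block, Plin2 in CD11c-negative cells against wildtype stayed at 1.609, and no call of the 10 genes changed; with the slide added, Hilpda between the NASH groups was called lower (-0.08571). Signal near background limits Mogat2 in wildtype.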
